A study of Saccharomyces cerevisiae with 3 samples.

Results

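Nucleotides 1881 to 2400 of the 25S rRNA were analyzed in 3 crosslinking and analysis of cDNA (CRAC) libraries of the yeast Saccharomyces cerevisiae. The stretch holds approximately domain IV of the large ribosomal subunit rRNA together with expansion segment ES27, and it was chosen by position, without regard to its reads. It contains 520 of the 3332 nucleotides (15.6%) of 25S rRNA that remain once nucleotides 1391 to 1454 are set aside, the h46/h47 stretch in which the Get4-HTP signal is concentrated. The 8 rDNA segments covered by the libraries comprise 6983 nucleotides. In CRAC, a protein with a His6-TEV-ProtA tag (HTP-tag) is crosslinked to RNA in living cells and purified, and the RNA fragments that remain attached are sequenced. Of the libraries, 2 came from BY4741 cells expressing Get4-HTP, that is Get4 with the tag at its C-terminus, from the genomic GET4 locus; they are called Get4-HTP 1 and Get4-HTP 2 here. The third came from wild type BY4741 cells without any tagged protein. All cells were in exponential growth in low uracil medium with 4-thiouracil, and were irradiated at 365 nm.

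Domain IV lies on the face of the large subunit that meets the small subunit. Its best known element is helix 69, a hairpin rich in pseudouridine (Psi) that bridges the subunits and touches the tRNAs at the decoding site. ES27 is a long, flexible and GC-rich insertion specific to eukaryotes that can swing on the ribosome surface, and in one of its positions it comes close to the exit of the polypeptide tunnel. Get4 forms with Get5 a complex of the GET pathway, which hands newly made tail-anchored membrane proteins to their targeting factors. A 4-thiouridine that was crosslinked is often copied as C, so that a T-C substitution in a read marks the crosslinked T.

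Hits and substitutions were available at every nucleotide, both from reads that carry a single T-C substitution. Hits are the reads covering the nucleotide, and substitutions are the reads whose substitution lies at it. Substitutions in 25S rRNA amounted to at least 99.95% of the reads assigned to its sense strand in every library, so they count reads. The libraries held 614992, 933943 and 107659 mapped reads (Get4-HTP 1, Get4-HTP 2, wild type), and 1 read therefore weighs 1.63, 1.07 and 9.29 per 1000000 mapped reads (rpm). Because wild type was represented by 1 library, no test between strains was run. Wild type had also been amplified with more PCR cycles than Get4-HTP, and strain and amplification cannot be told apart. Get4-HTP 1 and wild type shared a sequencing run code, while Get4-HTP 2 carried another one, so that only the ratio of Get4-HTP 1 to wild type lies within a run.

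The region is shown in full below as 5 blocks of 104 nucleotides, as read from the pileups, because the peaks, the ES27 part and helix 69 fall in different blocks. Capital T marks the 9 T positions that were among the 5 with most substitutions in at least 1 library.
Block 1, nucleotides 1881 to 1984: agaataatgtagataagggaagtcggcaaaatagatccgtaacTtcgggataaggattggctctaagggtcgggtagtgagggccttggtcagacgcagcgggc
Block 2, nucleotides 1985 to 2088: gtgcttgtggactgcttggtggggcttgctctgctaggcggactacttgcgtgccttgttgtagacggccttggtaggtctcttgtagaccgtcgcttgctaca
Block 3, nucleotides 2089 to 2192: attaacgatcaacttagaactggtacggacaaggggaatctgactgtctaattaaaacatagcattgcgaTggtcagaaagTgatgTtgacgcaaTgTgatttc
Block 4, nucleotides 2193 to 2296: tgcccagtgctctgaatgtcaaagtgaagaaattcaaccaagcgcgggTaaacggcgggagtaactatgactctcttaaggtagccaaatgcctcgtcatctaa
Block 5, nucleotides 2297 to 2400: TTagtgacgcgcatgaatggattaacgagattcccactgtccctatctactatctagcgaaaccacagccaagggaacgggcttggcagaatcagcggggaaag
The blocks differ in composition. Block 2, which is nearly all ES27, had a GC content of 56.7% and 34 T, whereas block 3 had 39.4% and 28 T. The region as a whole had 126 T and a GC content of 49.0%, against 47.9% in 25S rRNA.

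Reads from the region made up a smaller part of all mapped reads with Get4-HTP than without a tagged protein. It received 40758 hits in Get4-HTP 1, 40606 in Get4-HTP 2 and 27355 in wild type, which corresponds to 66274, 43478 and 254089 rpm. On this scale the ratio to wild type amounted to 0.261 for Get4-HTP 1 and 0.171 for Get4-HTP 2 (0.216 ± 0.0634, mean ± SD, n = 2). The decrease was not particular to the region. Over all 165 windows of 20 nucleotides of 25S rRNA outside the h46/h47 stretch, the median rpm ratio reached 0.300 (Get4-HTP 1) and 0.116 (Get4-HTP 2), beside 0.295 and 0.150 over the 26 windows of the region.

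As a share of 25S hits outside the h46/h47 stretch, the region was lower than wild type in one Get4-HTP library and higher in the other. It held 9.38% of these hits in Get4-HTP 1 and 15.6% in Get4-HTP 2, against 10.96% in wild type. Ratios to wild type were 0.856 and 1.42 (1.14 ± 0.398, mean ± SD, n = 2), so the Get4-HTP libraries lay on opposite sides of the wild type value. Substitutions gave the same order, with 1341 of 13821 (9.70%, Wilson 95% interval 9.22 to 10.2) in Get4-HTP 1, 1257 of 7515 (16.7%, 15.9 to 17.6) in Get4-HTP 2 and 952 of 8108 (11.7%, 11.1 to 12.5) in wild type. These intervals do not overlap, but like all intervals given here they cover counting error only, and the distance between the replicates exceeded that of either to wild type. Hits per nucleotide in the region averaged 78.4, 78.1 and 52.6 in Get4-HTP 1, Get4-HTP 2 and wild type, beside 140, 78.4 and 79.0 in the rest of 25S rRNA. By the mean, the region was thus below the rest in Get4-HTP 1 and wild type, and level with it in Get4-HTP 2. The medians were closer, at 50, 38 and 38 hits per nucleotide in the region, beside 57, 36 and 39 in the rest. If the shares are taken of 25S hits with the h46/h47 stretch included, the ratios were 0.637 and 0.509, because that stretch takes many Get4-HTP hits.

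**Figure D1:**
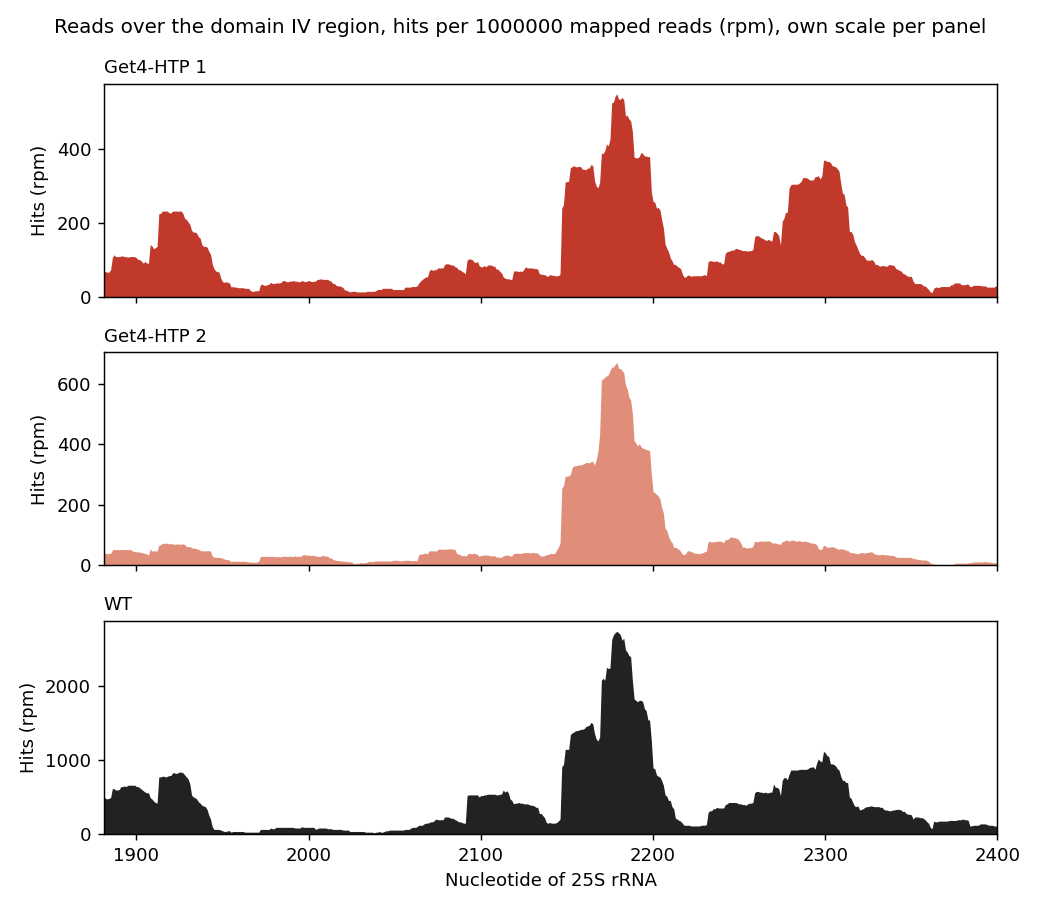
Hits in rpm (reads per 1000000 mapped reads, y axis, a separate scale in each panel) at each nucleotide of 25S rRNA from 1881 to 2400 (x axis) in Get4-HTP 1, Get4-HTP 2 and wild type (WT). All 3 libraries have their highest point at nucleotide 2179, at 551, 669 and 2731 rpm, and few reads between about 1950 and 2080. Get4-HTP 2 lacks the shoulder at 2300.

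The profile along the region had its main peak, between 2147 and 2206, in all 3 libraries. A lower shoulder around 2300 was seen only in Get4-HTP 1 and wild type, with 228 and 118 hits at nucleotide 2300, beside 61 in Get4-HTP 2. Coverage was low in the ES27 part and near the 3′ end of the region. The fewest hits were at nucleotide 2362 in Get4-HTP 1 (7 hits), at 2372 in Get4-HTP 2 (0 hits) and at 2038, within the ES27 part, in wild type (2 hits). The highest nucleotide was 2179 in every library, with 339 hits in Get4-HTP 1, 625 in Get4-HTP 2 and 294 in wild type. Runs of at least 10 nucleotides above 2 times the 25S mean were found only in this peak. In Get4-HTP 2 the run spanned nucleotides 2147 to 2206, held 57.6% of the region's hits and reached 7.98 times the 25S mean. In Get4-HTP 1 it was limited to 2175 to 2188, with 10.7% of the region's hits and a maximum of 2.60 times the mean. In wild type there was a short run from 2155 to 2165 and a longer one from 2170 to 2198, which held 24.9% of the region's hits and reached 3.92 times the mean. The peak was therefore present without any tagged protein, and in its height relative to the 25S mean wild type stood between the Get4-HTP libraries. In rpm the peak was highest in wild type, at 2731, beside 551 in Get4-HTP 1 and 669 in Get4-HTP 2. It was modest beside the highest nucleotide of 25S rRNA outside the h46/h47 stretch, of which it reached 9.99% in Get4-HTP 1, 27.0% in Get4-HTP 2 and 24.1% in wild type. The sequence of the run in Get4-HTP 2 is given, with capital T as above, because the share of the region changes when it is left out.
Nucleotides 2147 to 2206: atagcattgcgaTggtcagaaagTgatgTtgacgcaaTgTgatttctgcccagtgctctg
Without these 60 nucleotides, in numerator and denominator, the region's share relative to wild type was 0.925 (Get4-HTP 1) and 1.05 (Get4-HTP 2).

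The 5′ border of the peak was steep and was present in all 3 libraries. The largest rise between neighbouring nucleotides in both Get4-HTP libraries was the step between nucleotides 2146 and 2147, at which 38 hits were followed by 148 in Get4-HTP 1 and 69 by 239 in Get4-HTP 2. Wild type showed the step as well, with 22 hits followed by 98, although its largest rise came at 2169 to 2170, where 141 hits were followed by 223. Adenosine 2142, known in yeast to carry a methyl group on its base, lies just before this step and was covered by 36, 36 and 16 hits. Methylated bases of this kind can hinder reverse transcriptase, and the part of this in the step was not tested. On the 3′ side the hits declined more gradually. The largest falls between neighbouring nucleotides lay between 2188 and 2189 in Get4-HTP 2 (469 hits followed by 384), between 2198 and 2199 in Get4-HTP 1 (234 by 176) and between 2199 and 2200 in wild type (136 by 96).

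**Figure D2:**
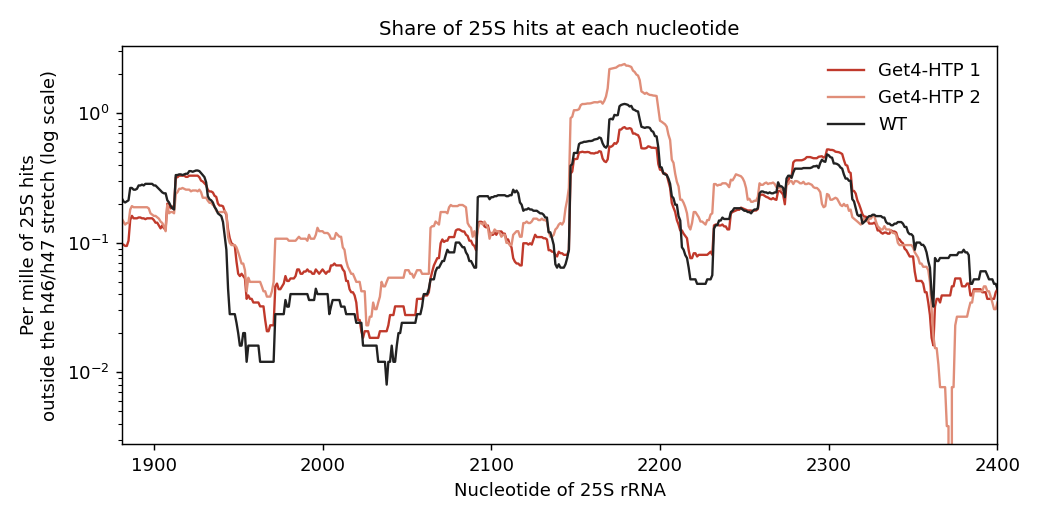
Share of 25S hits outside the h46/h47 stretch at each nucleotide, in per mille (y axis, log scale), against the nucleotide of 25S rRNA (x axis) for Get4-HTP 1, Get4-HTP 2 and wild type (WT). Both Get4-HTP lines run above wild type over most of 1941 to 2080, only Get4-HTP 2 runs above it in the peak at 2147 to 2206, and nucleotides without hits are not drawn.

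Divided into the 5 blocks, the region showed where the Get4-HTP libraries moved together and where they parted. Block 2, the ES27 part, was the only one with a share of hits above wild type in both, at 0.579% in Get4-HTP 1 and 0.995% in Get4-HTP 2, against 0.413% in wild type (ratios 1.40 and 2.41). It contained 81 and 98 substitutions in the Get4-HTP libraries, against 34 in wild type. The ratio of substitution shares was 1.40 (95% interval 0.926 to 2.15) in Get4-HTP 1 and 3.11 (2.09 to 4.74) in Get4-HTP 2, so that for the library of the same run as wild type the counts leave a ratio of 1 within the interval. In rpm, block 2 was below wild type, with ratios of 0.427 and 0.290, and as a share of all RDN37 hits it was nearly level, with ratios of 1.08 and 1.01.

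Block 3, which begins before the peak and holds most of it, gave opposite results in the Get4-HTP libraries. It took 3.17% of 25S hits in Get4-HTP 1 and 8.25% in Get4-HTP 2, against 4.62% in wild type (ratios 0.686 and 1.79). Block 4, with helix 69, was at 2.59% and 3.78%, against 2.62% (ratios 0.990 and 1.44). The first and last blocks were near or below wild type. Block 1 held 1.54% of hits in either Get4-HTP library, against 1.74% in wild type. Its ratio of substitution shares was 0.789 (interval 0.637 to 0.978) in Get4-HTP 1 and 0.778 (0.604 to 0.999) in Get4-HTP 2. Both intervals lie below 1, that of Get4-HTP 2 only barely, and they cover counting error only. By this measure no other block had both intervals on the same side of 1. Block 5 held 1.504% of hits in Get4-HTP 1 and 0.993% in Get4-HTP 2, against 1.57%.

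**Figure D3:**
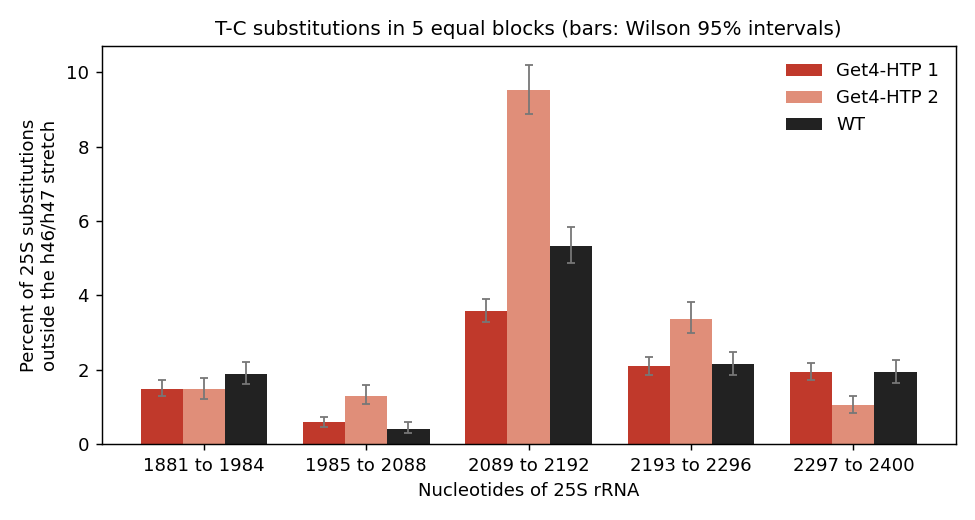
Percent of 25S substitutions outside the h46/h47 stretch (y axis) in 5 equal blocks of the region (x axis, nucleotides of 25S rRNA) for Get4-HTP 1, Get4-HTP 2 and wild type (WT), with Wilson 95% intervals as error bars. The block from 2089 to 2192 is the tallest in each library, at 3.59%, 9.51% and 5.34%, and the block from 1985 to 2088 is at 0.586%, 1.304% and 0.419%, the lowest in Get4-HTP 1 and wild type, whereas in Get4-HTP 2 the block from 2297 to 2400 is lower still, at 1.05%.

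In windows of 20 nucleotides, few crossed a 2-fold limit in both Get4-HTP libraries. A pseudocount of 1% of the mean window was added before ratios to wild type were formed. By share of 25S hits, 1 of 26 windows was at least 2-fold higher in both, beside 5.45% of all 165 windows of 25S rRNA, and 0 of 26 were at least 2-fold lower in both, beside 4.85%. In rpm, 23 of 26 windows were at least 2-fold lower in both, beside 83.0% of all windows, and 0 were higher, beside 0%. These shares of windows were near those of 25S rRNA as a whole. In Get4-HTP 2 alone, however, 11 of 26 windows were at least 2-fold higher by share, beside 22 of the 139 windows outside the region, whereas in Get4-HTP 1 alone it was 1 of 26, beside 12 of 139. Neighbouring windows share reads, since a read covered on average 31.5, 34.7 and 30.8 nucleotides of 25S rRNA outside the h46/h47 stretch in Get4-HTP 1, Get4-HTP 2 and wild type.

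The window that was higher in both, nucleotides 1941 to 1960, precedes ES27 or opens it. It had 705 hits in Get4-HTP 1 and 460 in Get4-HTP 2, against 177 in wild type, and share ratios of 2.19 and 2.36. Its substitutions were few, 16 and 10 against 2, with ratios of 4.69 (95% interval 1.10 to 42.1) and 5.39 (1.15 to 50.6). The highest mean ratio was that of window 1961 to 1980, with 319 and 378 hits against 102 and ratios of 1.69 and 3.21, followed by 1941 to 1960 and by 2001 to 2020, with 491 and 482 hits against 162 and ratios of 1.68 and 2.68. Window 1961 to 1980 had only 2 and 2 substitutions against 1, with 95% intervals of the ratio of 0.0611 to 69.2 and 0.112 to 127. Window 2001 to 2020 had 27 and 21 against 6, with intervals of 1.07 to 7.82 and 1.47 to 11.4. Here too the wild type counts were small.

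These windows belonged to a continuous row of 7, nucleotides 1941 to 2080, that were all above wild type by share in both Get4-HTP libraries. The row lies approximately where ES27 is placed in yeast 25S rRNA, and its borders were picked from the ratios. It had 3229 hits in Get4-HTP 1 and 3186 in Get4-HTP 2, against 1178 in wild type, that is 0.743% and 1.22% of 25S hits against 0.472% (ratios 1.57 and 2.59). At most 83, 51 and 36 reads covered any of its nucleotides. Ratios above 1 were also frequent in poorly covered windows elsewhere. Outside the region, 27 windows of 25S rRNA had no more than 346 wild type hits, the highest number in the row, and 18 of them were above wild type in both Get4-HTP libraries, beside 45 of all 139 windows. These 27 windows had median ratios of 1.42 (Get4-HTP 1) and 1.41 (Get4-HTP 2). They were picked by low wild type hits, the denominator of the ratio, and this choice favours ratios above 1 in advance. The comparison therefore cannot tell whether the increase goes with low coverage. The part of low wild type coverage in the ES27 values was not tested.

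The lowest windows lay at the ends of the region and just before the peak. Window 2361 to 2380 had 350 hits in Get4-HTP 1 and 79 in Get4-HTP 2, against 372 in wild type (share ratios 0.558 and 0.231). Window 2101 to 2120 had 855 and 607 hits, against 1127 (0.443 and 0.520), and window 1881 to 1900 had 1216 and 903 hits, against 1289 (0.547 and 0.673). Among these 3 lowest windows, 2101 to 2120 was the most similar between the replicates, and it fell short of the 2-fold limit only in Get4-HTP 2. Its substitutions, 30 and 16 against 49, gave ratios of 0.359 (95% interval 0.2201 to 0.577) and 0.352 (0.187 to 0.630), and by this measure it was past the limit in both. The last window, 2381 to 2400, contained 0 of 7515 substitutions in Get4-HTP 2 and 3 each in Get4-HTP 1 and wild type. It has only 1 T, T2388, which was covered by 19 reads in Get4-HTP 1, 11 in Get4-HTP 2 and 13 in wild type. With 3 counts taken as the upper limit for 0, a share of up to 0.0399% is allowed in Get4-HTP 2.

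**Figure D4:**
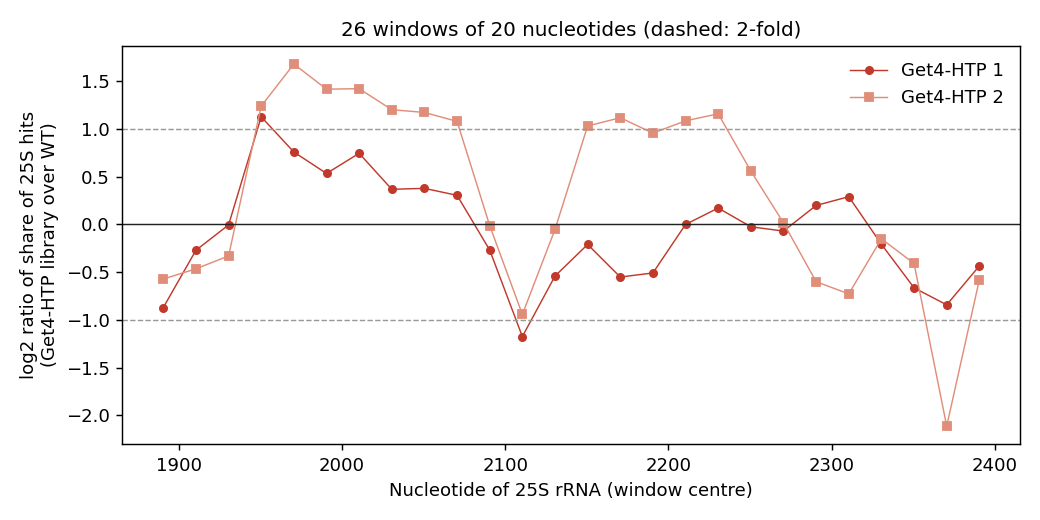
log2 ratio of the share of 25S hits, each Get4-HTP library over wild type (y axis), in the 26 windows of 20 nucleotides of the region, placed at their centres (x axis). Dashed lines mark 2-fold, and both libraries are above 0 from 1941 to 2080 and below 0 at 2101 to 2120, whereas between 2141 and 2200 Get4-HTP 2 is above and Get4-HTP 1 below.

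Substitutions were concentrated on a small number of T positions, led by T2175 in every library. The 5 leading T of each library held 26.03% of the region's substitutions in Get4-HTP 1, 45.9% in Get4-HTP 2 and 27.4% in wild type. They were 9 different positions in all, of which T1924 and T2175 were among the 5 in every library. The surroundings of T2175, T1924 and T2298, which bear on the results that follow, are given with the substituted T in capitals.
T2175, nucleotides 2165 to 2185: gaaagtgatgTtgacgcaatg
T1924, nucleotides 1914 to 1934: gatccgtaacTtcgggataag
T2298, nucleotides 2288 to 2308: gtcatctaatTagtgacgcgc
T2175 is the first T of a pair and lies in the peak. At this position, 95 of 263 covering reads were substituted in Get4-HTP 1 (36.1%, 30.6 to 42.1), 446 of 600 in Get4-HTP 2 (74.3%, 70.7 to 77.7) and 131 of 241 in wild type (54.4%, 48.0 to 60.5). The intervals are separate, and wild type lay between the Get4-HTP libraries. T2175 alone accounted for 7.08%, 35.5% and 13.8% of the region's substitutions. When it was removed, the region held 9.08% of 25S substitutions in Get4-HTP 1 and 11.5% in Get4-HTP 2, against 10.3% in wild type, and the ratio for Get4-HTP 2 was 1.11 (1.01 to 1.23) in place of 1.42.

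T1924 differed less between the libraries. It lies in the letters cTtcgg, which have the form of a UUCG tetraloop with its closing pair, and 48 of 143 covering reads (33.6%) were substituted in Get4-HTP 1, 31 of 66 (46.97%) in Get4-HTP 2 and 37 of 89 (41.6%) in wild type. The neighbouring T1925 was substituted in 14.7%, 12.1% and 14.4% of covering reads. T1924 and T2175 were the 2 of 37 T (5.41%) that had at least 50 hits and at least 20% substituted reads in each library, beside 6.56% of the 244 T of 25S rRNA with that coverage. The region was thus not rich in such positions.

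**Figure D5:**
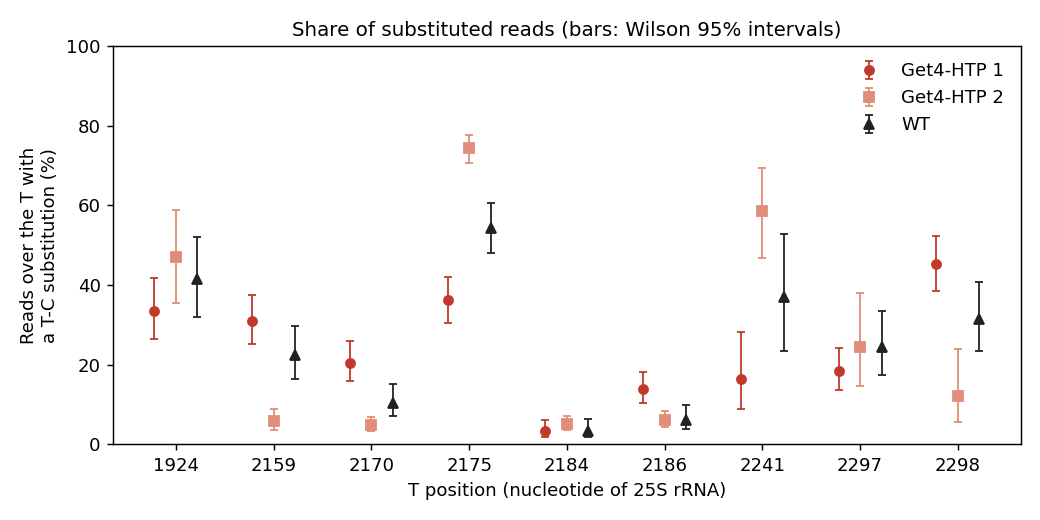
Percent of covering reads with a T-C substitution (y axis) at the 9 T positions that were among the 5 with most substitutions in a library (x axis, nucleotide of 25S rRNA), for Get4-HTP 1, Get4-HTP 2 and wild type (WT), with Wilson 95% intervals. The order of the libraries changes between positions, with Get4-HTP 2 highest at 2175 (74.3%) and lowest at 2298 (12.0%).

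Several other leading T positions went in opposite directions in the Get4-HTP libraries. T2298 was substituted in 91 of 201 covering reads in Get4-HTP 1 (45.3%) and in 6 of 50 in Get4-HTP 2 (12.0%), against 33 of 105 in wild type (31.4%). T2241 showed the reverse, with 9 of 55 (16.4%) and 41 of 70 (58.6%), against 14 of 38 (36.8%). At T2159, 66 of 213 (31.0%) and 18 of 311 (5.79%) covering reads were substituted, against 34 of 152 (22.4%). In each case wild type again had an intermediate value, but only Get4-HTP 2 at T2159 had a 95% interval separate from wild type. T2170 had 20.4% and 4.73%, against 10.3%. The remaining leading T were nearly level with wild type in 1 of the Get4-HTP libraries. These were T2184 in Get4-HTP 1 (3.31%, against 3.37%), and T2186 (5.97%, against 6.18%) and T2297 (24.5% in both) in Get4-HTP 2. In Get4-HTP 1, however, T2186 was higher than wild type, at 13.8% (10.3 to 18.2) against 6.18% (3.84 to 9.80), with separate intervals. T2184 was at 5.04% in Get4-HTP 2 and T2297 at 18.3% in Get4-HTP 1, both with intervals that overlap wild type. Among the 37 T with at least 50 hits in all libraries, the 95% intervals were separate from wild type at 5 in Get4-HTP 1 (2 higher, 3 lower) and at 8 in Get4-HTP 2 (1 higher, 7 lower), and were separate between the Get4-HTP libraries at 10. Only T2153 was separate from wild type in the same direction in both, with 6.91% and 2.66% of covering reads substituted, against 16.3%. Separate intervals were not counted for T outside the region, and whether the counts are particular to the region was not tested.

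The base 3′ of a T went with moderate differences. T followed by A were substituted in 15.4% of covering reads in Get4-HTP 1, 13.6% in Get4-HTP 2 and 17.1% in wild type (32 T), T followed by C in 8.24%, 6.36% and 9.59% (28 T), and T followed by G in 11.7%, 6.65% and 9.65% (41 T). T followed by another T reached 17.0%, 24.6% and 22.1% (25 T), which dropped to 14.1%, 7.60% and 15.2% without T2175. The base 5′ of a T made less difference. Without T2175, T preceded by A, C or G were substituted in 8.28% to 8.57% of covering reads in Get4-HTP 2. In wild type these were 11.8% to 13.1%. T preceded by another T were lower, at 5.24% in Get4-HTP 2 and 9.87% in wild type. In Get4-HTP 1 the values ran from 8.71% (T preceded by C) to 13.6% (T preceded by A).

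Domain IV is among the most modified parts of the rRNA, and 23 nucleotides known to be modified in yeast were examined, all of which had the stated base. They comprise 11 Psi, 10 ribose-methylated nucleotides and 2 with a methylated base. The 13 that are read as T were substituted in 88 of 1022 covering reads in Get4-HTP 1 (8.61%), 64 of 918 in Get4-HTP 2 (6.97%) and 70 of 735 in wild type (9.52%). The other 113 T of the region had 13.1%, 11.7% and 13.9%, so that modified T were lower in every library when reads were pooled. In Get4-HTP 2 most of this gap came from T2175, without which the other T had 12.5%, 7.80% and 12.3%. This order did not hold for a typical position in Get4-HTP 2, in which the median was 10.7% for modified and 7.04% for other T, against 9.26% and 10% in wild type. Which of these T had taken up 4-thiouridine is not known from the counts. Um1888 was the most often substituted of them in Get4-HTP 2 and wild type, at 23.9% of covering reads in Get4-HTP 1 (16 of 67) and 26.5% in Get4-HTP 2 (13 of 49), against 21.9% in wild type (14 of 64).

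The loop of helix 69 did not differ between Get4-HTP and wild type beyond counting error as a share of 25S substitutions, while in rpm it was lower, as most of 25S rRNA was. It was found as the letters TAACTATGA, which occur once in 25S rRNA, at nucleotides 2254 to 2262, shown here in capitals with 8 nucleotides on either side.
Helix 69 loop, nucleotides 2246 to 2270: ggcgggagTAACTATGActctctta
The loop had 790 hits in Get4-HTP 1 and 573 in Get4-HTP 2, against 467 in wild type, which are 0.182% and 0.219% of 25S hits against 0.187% (ratios 0.971 and 1.17). It had 51 and 28 substitutions, against 27, and the ratios of substitution shares were 1.11 (95% interval 0.682 to 1.84) and 1.12 (0.636 to 1.97). Changes up to these limits were not detectable at this depth. In rpm the ratios of hits were 0.296 and 0.141. Within the loop, 27.5% of the reads over Psi2260 were substituted in Get4-HTP 1 (28 of 102) and 15.1% in Get4-HTP 2 (11 of 73), against 16.1% in wild type (10 of 62). Psi2258 reached 7.59% and 8.47%, against 10.9%. The Psi just beyond the loop went different ways, with Psi2264 at 1.03% and 6.76%, against 18.3%, and Psi2266 at 13.8% and 10.7%, against 1.67%. These rest on between 1 and 13 substituted reads each, and the 95% interval of Psi2264 was separate from wild type in Get4-HTP 1 only.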

How the data were processed

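The authors trimmed the reads with Flexbar, discarded reads shorter than 18 nucleotides, collapsed them by UMI, mapped them with Bowtie 2 (version 2.3.4.2 in the submitters' processing notes), and retained those with a single T-C mutation. The deposited values are counts of hits, substitutions and deletions at each nucleotide of 8 rDNA segments, made by the authors with pyPileup and not normalized. The genome build is not given in the sources used here. Reads lacking a T-C mutation were thus absent, the percentage substituted at a T refers to reads that are all substituted somewhere, and frequently substituted positions are covered more.

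25S nucleotides were numbered from 1 at the 5′ end. Counts were divided by mapped reads (times 1000000, rpm) or by the 25S sum without nucleotides 1391 to 1454. Mean hits per nucleotide of 25S rRNA outside that stretch were 130, 78.4 and 74.9 in Get4-HTP 1, Get4-HTP 2 and wild type, and 3 reads correspond to 4.88, 3.21 and 27.9 rpm. One Get4-HTP library is labelled 2; the other libraries, unnumbered, were given 1. Named were runs of at least 10 nucleotides above 2 times the mean, the 5 T with most substitutions per library, the 3 highest and 3 lowest windows, the largest steps, known modified nucleotides, the helix 69 loop and 5 equal blocks. T1925, T2153 and the row from 1941 to 2080 were picked once their values were known. Members and lists were chosen with earlier results of these data known. Shares have Wilson 95% intervals, except the limit for window 2381 to 2400, and ratios have 95% intervals from the exact binomial (Clopper-Pearson) interval. The code was tested on simulated data. Alternatives concerned the scaling, window width, pseudocount, limits, the peak and each Get4-HTP library. Python 3.11.15, numpy 2.4.6, scipy 1.17.1 and matplotlib 3.10.9 were used.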

Additional observations from a re-analysis of the deposited data

How the results depend on the processing

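The ratio of the region's share to wild type (1.14, mean of both Get4-HTP libraries) was 0.216 in rpm, 0.628 as a share of RDN37 hits and 0.573 with the h46/h47 stretch included. With substitutions, without the highest wild type run, without the Get4-HTP 2 run, without T2175, or with 40 more nucleotides on either side of the h46/h47 stretch left out, it lay between 0.986 and 1.26. It was 0.856 without Get4-HTP 2 and 1.42 without Get4-HTP 1. Block 2 (mean ratio 1.91) reversed to 0.359 in rpm and was 1.05 as a share of RDN37 hits. The windows lower in both Get4-HTP libraries numbered 0, beside 4.85% of all 25S windows. The number was 23 in rpm (83.0% of all windows), 1 with substitutions (5.45%) and 2 at a limit of 1.5-fold (12.1%). It was 1 with Get4-HTP 1 alone (7.27%) and 1 with Get4-HTP 2 alone (15.8%). The window that was higher in both (1, beside 5.45% of all windows) was lost (0) in rpm (0%) and in windows of 40 nucleotides (3.70%). It was also lost with a pseudocount of 10% (1.82%), with at least 500 wild type hits (1.89%) and at 3-fold (1.21%). The number was 2 with substitutions (9.09%), 2 in windows of 10 nucleotides (5.72%) and 3 at 1.5-fold (10.9%). With Get4-HTP 1 alone it was 1 (7.88%), and with Get4-HTP 2 alone it was 11 (20%). The often substituted T positions (2) numbered 7 with at least 20 hits, 1 with at least 100 hits, 10 at a limit of 10% and 0 at 40%. They numbered 2 to 6 with 1 Get4-HTP library left out. Under these settings no share over all T of 25S rRNA was formed. The alternatives with 40 more nucleotides, without the Get4-HTP 2 run and without T2175, and both block results, were chosen after seeing the data. No paired analysis was possible because there was 1 wild type library and no test between strains. Depth limited the values of poorly covered stretches, among them nucleotides 1941 to 2080, with at most 36 wild type hits, and 2361 to 2380, with 79 hits in all in Get4-HTP 2.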
